A study of Mus musculus with 2 samples.

Results

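The genes described here encode enzymes that remove peroxides and superoxide or that make and use glutathione and thioredoxin, and they were taken by name from a table of read counts for 49492 mouse genes. The names were those of the glutathione peroxidases (Gpx), glutathione S-transferases (Gst), superoxide dismutases (Sod1 to Sod3), peroxiredoxins (Prdx1 to Prdx6) and all genes beginning with Txn, together with Gsr, Gss, Gclc, Gclm, Cat, Nqo1 and Srxn1. This gave 64 genes after pseudogenes were dropped, of which 59 had at least 10 counts summed over the libraries compared. The rule used names alone, but it was set with earlier results of these data known. The libraries were made from colonies grown in 3D matrix gel from FACS sorted mammary basal cells of adult wild type female mice. The control cells had no treatment and the other culture had TNF-α at 10 ng/mL, each for 10 days, in a medium with EGF and ITS, a supplement of insulin, transferrin and selenium that both cultures received. There was 1 library per condition, and the labels do not give the strain, the number of mice or whether cells of several mice were pooled. For every gene below, what TNF-α did and what merely differed from culture to culture cannot be told apart, and no p-value is given.

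Superoxide, a by-product of respiration and of NADPH oxidases, is turned into hydrogen peroxide by superoxide dismutases, and the peroxide is then reduced to water by catalase, glutathione peroxidases and peroxiredoxins. Glutathione peroxidases draw electrons from glutathione, a tripeptide made by glutamate-cysteine ligase (Gclc and Gclm) and glutathione synthetase (Gss) and regenerated by glutathione reductase (Gsr), whereas peroxiredoxins draw them from thioredoxin, which thioredoxin reductases recharge. Glutathione S-transferases attach glutathione to reactive or foreign molecules, and many genes of these systems carry antioxidant response elements bound by NRF2, while Sod2 is a well known target of NF-κB, the factor activated by TNF-α receptors.

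The control library held 44462275 counts in all and the TNF-α library 53487087. Ratios are log2 ratios of TNF-α to control CPM, counts relative to the library total, after TMM scaling with a prior count of 2, and a gene is called higher or lower when it passed 2-fold. Levels are TPM, counts per base of exon scaled to the same sum in each library, and since this scale is set within each library, a ratio of TPM can differ a little from the ratio of scaled counts. Intervals are 95% Clopper-Pearson intervals of a gene's share of counts in the TNF-α sample, turned into ratios. They hold counting error alone, since 1 library per condition shows no spread between cultures. They also treat each count as an independent molecule. Reads amplified by PCR need not be independent, and the intervals would then be too narrow. The basal keratin genes Krt5 and Krt14 had log2 ratios of 0.16 and -0.08, and 1 of 6 basal markers was called lower, the oxytocin receptor gene Oxtr. Luminal markers were also present, with a summed level of 6038 TPM in the control and 4957 TPM with TNF-α. Of these markers 9 of 10 had ratios below 0, with Pgr, Esr1 and Prlr called lower at -1.54, -1.48 and -1.15. The more abundant Krt8, Krt19, Krt18 and Epcam were within 2-fold, at -0.10, -0.84, -0.28 and 0.29. Leukocyte and macrophage markers summed to 11.9 and 8.92 TPM. Cd3e was at 0 in both libraries and Adgre1 at 0 and 2 counts. Lyz2 had 114 and 109 counts, Csf1r 92 and 81, Cd68 83 and 75, Itgam 50 and 40, Ptprc 26 and 38 and Cd79a 6 and 4. Fibroblast markers summed to 152 and 150 TPM. Of these 6 genes 1 was called higher, Dcn at 1.39 (184 and 582 counts), and Col3a1 was lowest at -0.66. Endothelial markers summed to 3.62 and 3.45 TPM and red blood cell markers to 61.1 and 47.9 TPM.

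Promoter sequences are shown for Gpx3, Gstm1 and Gsta3, which were lower with TNF-α, and for Srxn1 and Sod2, which had ratios above 0. They are taken from RefSeq on GRCm38.p6, run 5′ to 3′ on the strand of the gene from 250 bases before to 50 bases after the annotated start, and capitals mark matches to the core of the antioxidant response element (TGACNNNGC or TGAGNNNGC on either strand) or to the κB motif.
Gpx3 (chr11:54902604-54902903, + strand): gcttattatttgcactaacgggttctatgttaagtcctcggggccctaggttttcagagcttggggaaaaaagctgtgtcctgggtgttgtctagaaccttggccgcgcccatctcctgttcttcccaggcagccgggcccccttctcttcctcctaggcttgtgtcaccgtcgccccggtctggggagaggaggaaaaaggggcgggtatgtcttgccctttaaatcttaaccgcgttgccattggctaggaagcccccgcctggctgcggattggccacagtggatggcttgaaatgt
Gstm1 (chr3:108017924-108018223, - strand): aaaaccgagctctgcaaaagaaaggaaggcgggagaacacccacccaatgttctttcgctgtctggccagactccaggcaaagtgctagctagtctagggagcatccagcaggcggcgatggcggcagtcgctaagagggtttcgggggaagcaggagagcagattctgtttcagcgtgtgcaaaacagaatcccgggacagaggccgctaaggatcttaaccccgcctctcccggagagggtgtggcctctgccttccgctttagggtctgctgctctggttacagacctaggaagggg
Gsta3 (chr1:21240335-21240634, + strand): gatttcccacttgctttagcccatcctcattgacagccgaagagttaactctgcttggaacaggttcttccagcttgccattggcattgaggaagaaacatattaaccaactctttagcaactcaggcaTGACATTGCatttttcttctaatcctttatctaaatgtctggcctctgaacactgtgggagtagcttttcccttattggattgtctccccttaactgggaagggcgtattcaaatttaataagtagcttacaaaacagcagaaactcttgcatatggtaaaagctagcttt
Srxn1 (chr2:152105274-152105573, + strand): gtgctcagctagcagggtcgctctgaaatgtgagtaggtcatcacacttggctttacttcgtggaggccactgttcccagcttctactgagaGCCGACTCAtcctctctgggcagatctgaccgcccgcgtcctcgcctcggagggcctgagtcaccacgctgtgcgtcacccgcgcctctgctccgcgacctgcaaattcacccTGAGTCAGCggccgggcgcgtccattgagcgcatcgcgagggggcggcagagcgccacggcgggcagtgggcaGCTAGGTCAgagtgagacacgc
Sod2 (chr17:13007589-13007888, + strand): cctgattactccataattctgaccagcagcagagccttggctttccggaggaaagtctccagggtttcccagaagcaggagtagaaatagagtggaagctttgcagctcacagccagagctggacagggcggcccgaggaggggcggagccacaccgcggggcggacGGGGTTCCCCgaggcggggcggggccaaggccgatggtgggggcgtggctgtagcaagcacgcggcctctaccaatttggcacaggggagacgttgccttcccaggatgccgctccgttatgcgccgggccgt
For Gstm1, which has more than 1 window in the table, the window shown is the one placed at the start of the gene in the deposited coordinates. Srxn1 had 3 matches to the response element core and Gsta3 had 1, at -121 to -113 from its start. The single κB match of Sod2, at -83 to -74, matches the motif on both strands at the same place. The Gpx3 and Gstm1 windows held neither motif in these 300 bases.

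Most antioxidant genes lay near the same level in both libraries, as did most of all genes, and the ones past 2-fold were lower with TNF-α. Of the 59 genes compared, 0 were called higher, against 8.56% of all 20771 genes with at least 10 counts. The genes called lower were 5, Gpx3, Gsta2, Gsta3, Gstm1 and Gsta1, or 8.47% of the 59 against 6.62% of all genes, so their number was near the background. The median log2 ratio was -0.07, with 26 genes above 0 and 33 below, beside a median of 0.0038 over all genes. For 41 genes the ratio was within 0.5 of 0. The quartiles of the ratio were -0.47 and 0.16 for the antioxidant genes and -0.29 and 0.31 over all genes. Most genes of both sets thus lay within this band. The counting interval lay wholly above 0 for 15 genes, wholly below 0 for 25 and included 0 for 19. The same counts were not made over all genes, so they do not set the antioxidant genes apart. At high counts a small difference is enough to move an interval off 0.

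**Figure D1:**
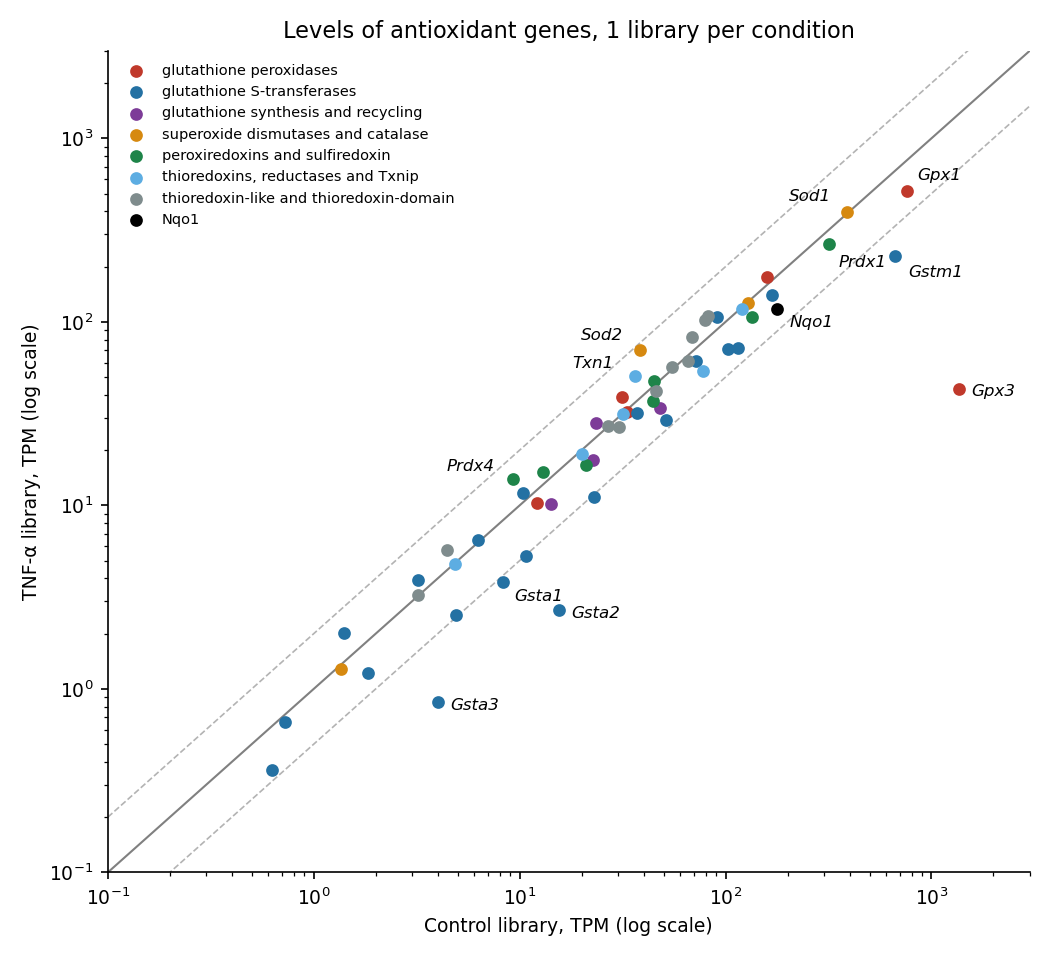
Level of each antioxidant gene with at least 10 counts in the control library (x axis, TPM, log scale) and the TNF-α library (y axis, TPM, log scale), coloured by role, with 1 library per condition. The solid line marks equal levels and the dashed lines 2-fold. Gpx3, at 1363 and 42.9 TPM, lies farthest from the line, and no gene lies above the upper dashed line. Gstm1, Gsta1, Gsta2, Gsta3, Gstm6 and Gstm7 also lie below the lower one. Of these, Gstm6 and Gstm7 were not called, since calls use scaled counts, where their log2 ratios were -0.97 and -0.998.

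Gpx3 encodes the glutathione peroxidase that is secreted and found in plasma, and its transcript was the most abundant of all the antioxidant genes in the control library. It had 39022 counts (1363 TPM) in the control and 1519 counts (42.9 TPM) with TNF-α. The control library was thus far above the TNF-α library, at a log2 ratio of -4.94 (95% interval -5.02 to -4.87), or 30.7-fold. Of the 20771 genes compared, 2 had a lower ratio. Among all genes ranked by TPM, Gpx3 went from place 92 to place 3497, and among the antioxidant genes from place 1 to place 24. The gene lies on chromosome 11 of GRCm38 from 54902453 to 54910377, and 0% of the 50-base windows of its transcripts occurred in transcripts of other genes, so shared reads do not bear on its count. In bulk samples such as these, fewer cells of a type and less RNA per cell cannot be told apart. Of the luminal markers 3 of 10 were also called lower, beside 6.62% of all genes. Of 4 adipocyte markers 2 had at least 10 counts, and 1 of these was called lower, Lep, with 127 and 10 counts. The other, Fabp4, had 206 and 146 counts and a ratio of -0.75. The adipocyte markers summed to 5.40 and 1.82 TPM, with Plin1 at 0 counts in both libraries and Adipoq at 2 and 0. The part of either cell type in the Gpx3 value was not tested.

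No other glutathione peroxidase was called, beside 8.56% of all genes called higher and 6.62% lower. Gpx1, the ubiquitous cytosolic enzyme, had 17340 counts (762 TPM) in the control and 14586 (519 TPM) with TNF-α, a log2 ratio of -0.51 (-0.54 to -0.48), and was the most abundant antioxidant transcript in the TNF-α library. Gpx4, which reduces peroxides of membrane lipids, stood at 158 and 175 TPM (ratio 0.20). Gpx2, an epithelial form best known from the gut, had 561 and 675 counts and a ratio of 0.01. These values show the other abundant family members within 2-fold while Gpx3 was not. Gpx7 and Gpx8, which act in the endoplasmic reticulum, had ratios of -0.19 and 0.37, the latter being the highest of the family (502 and 776 counts). Gpx5 and Gpx6, known from the epididymis and the olfactory epithelium, had 0 counts in both libraries, which allows up to 3 counts in each.

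Because Gpx3 was so abundant, it set the summed level of its family. The glutathione peroxidases summed to 2360 TPM in the control and 819 TPM with TNF-α, and Gpx3 made up 57.8% and 5.24% of these sums. Without Gpx3 the family summed to 997 and 776 TPM. Over all 64 genes the sum was 5934 TPM in the control and 3711 TPM with TNF-α, and without Gpx3 and Gstm1 it was 3903 and 3441 TPM. The order of the most abundant genes also differed. Gpx3, Gpx1, Gstm1, Sod1 and Prdx1 led in the control library, and Gpx1, Sod1, Prdx1, Gstm1 and Gpx4 led in the TNF-α library.

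**Figure D2:**
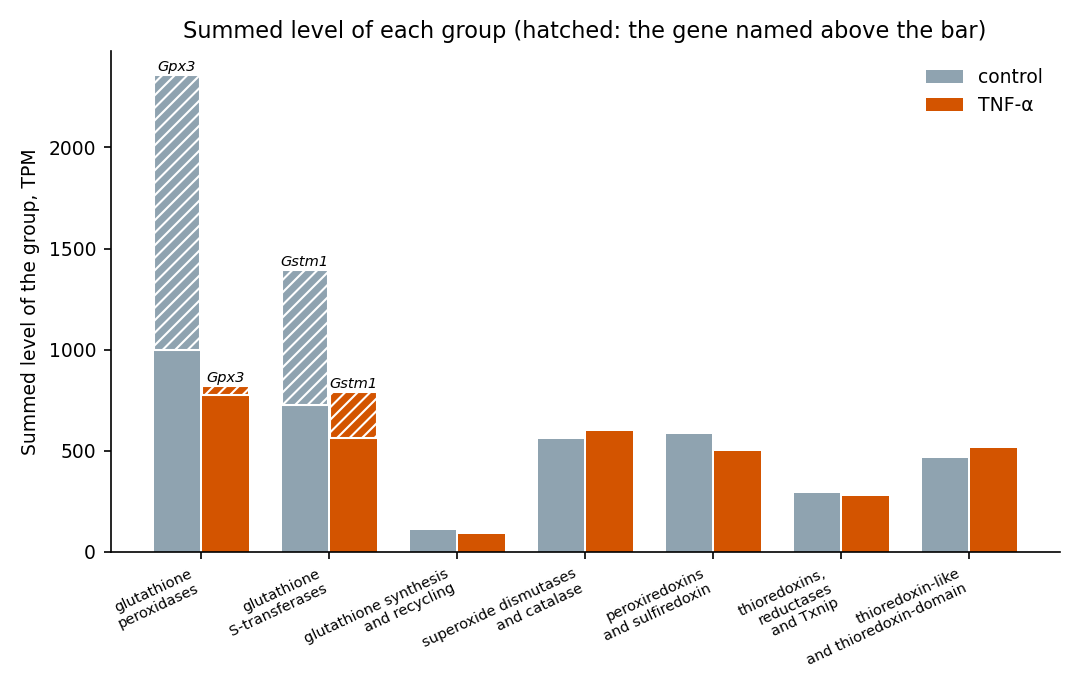
Summed level of each group of antioxidant genes in the control and TNF-α libraries (y axis, TPM, from 0). Hatching marks Gpx3 within the peroxidases and Gstm1 within the S-transferases, which made up 57.8% and 47.9% of their groups in the control and 5.24% and 28.7% with TNF-α.

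The glutathione S-transferases were the group with the most low ratios. Of 22 genes, 21 had at least 10 counts, 4 were called lower, 0 were called higher and 16 had a ratio below 0, with a median of -0.52 beside 0.0038 over all genes, of which 6.62% were called lower and 8.56% higher. When the 59 genes were ordered by ratio, places 2 to 11 from the lowest were all held by S-transferases. The part of the lower luminal markers in these values was not tested. Gstm1, of the mu class, was the most abundant of them, with 15551 counts (668 TPM) in the control and 6542 (228 TPM) with TNF-α. The control was 2.85-fold above the TNF-α library, a log2 ratio of -1.51 (-1.55 to -1.47). Gsta2, of the alpha class known for conjugating products of lipid peroxidation, had 287 and 62 counts, and its ratio was -2.43 (-2.89 to -2.07). Gsta3, an alpha class gene on chromosome 1 apart from the others, had 274 and 72 counts and a ratio of -2.15 (-2.58 to -1.81). Both alpha class genes were thus further below the control than Gstm1 was, but at far lower levels, 15.4 and 3.99 TPM in the control against 668 TPM. Gsta1 had 126 and 71 counts, and its ratio of -1.06 (-1.53 to -0.66) passed 2-fold without the whole of its interval. Next to the threshold on the other side stood Gstm7, with 579 and 346 counts and a ratio of -0.998 (-1.20 to -0.81). Gsta4, the alpha class gene whose enzyme takes hydroxynonenal as substrate, had the highest level of its class and 1029 and 720 counts (ratio -0.77).

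Neighbouring genes of this family did not all lie on the same side of 0. The 7 Gstm genes stand within 149 kb of chromosome 3 (107895821 to 108044894), and Gstm1 lies between Gstm2 and Gstm4. Gstm2 had 2412 counts in the control and 3487 with TNF-α, a ratio of 0.27 (0.20 to 0.35), whereas Gstm4 had 1926 and 2047 counts and a ratio of -0.17 (-0.26 to -0.08). The gene in the middle was therefore lower by more than 2-fold while its neighbours on either side were not. Per base of exon, Gstm2 stood at 0.136 times the level of Gstm1 in the control and 0.468 times with TNF-α. Gstm5 and Gstm6 had ratios of -0.48 and -0.97, and Gstm3 had only 15 and 17 counts. The 3 Gsta genes of chromosome 9 all had ratios below 0. On chromosome 10, Gstt2 had 106 and 68 counts (ratio -0.88) while Gstt1 and Gstt3 had ratios of 0.54 and 0.10, the former from 34 and 60 counts. Gstp1, the pi class enzyme common in epithelia, had 1368 and 1062 counts, a ratio of -0.62, and Gsto1, of the omega class, had 5194 and 5352 counts, a ratio of -0.22. The mitochondrial and peroxisomal Gstk1 and the zeta class Gstz1, which acts in tyrosine breakdown, were at 0.21 and -0.17.

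**Figure D3:**
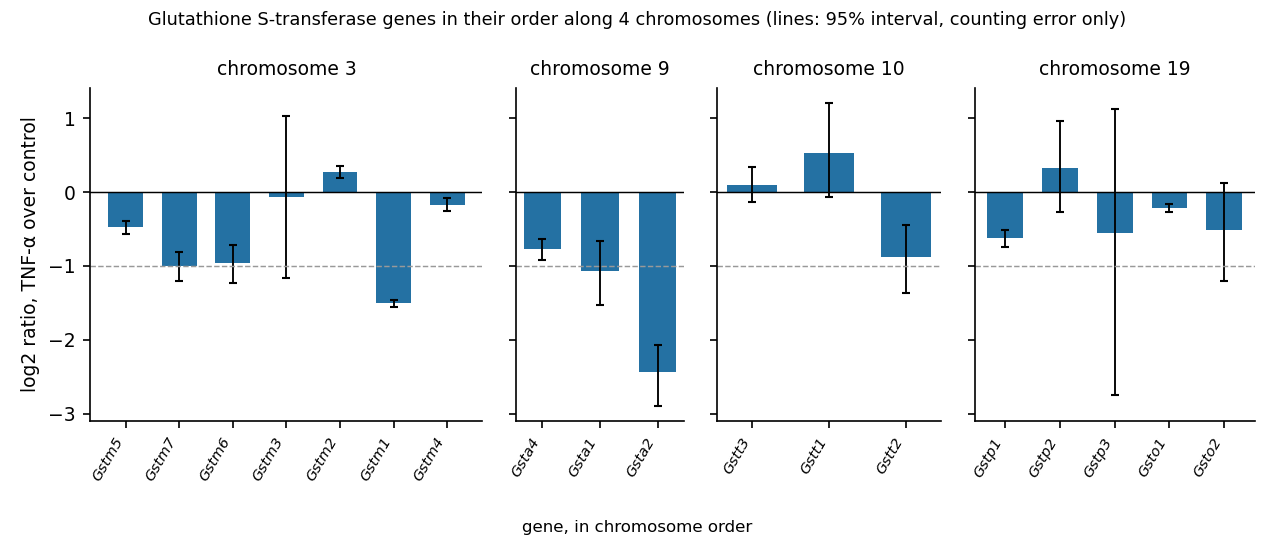
Log2 ratio of TNF-α to control (y axis) of the glutathione S-transferase genes with at least 10 counts on 4 chromosomes, in their order along each chromosome and not to scale. Bars are single ratios from 1 library per condition, lines are 95% intervals for counting error, and the dashed line marks 2-fold lower. Gstm1 at -1.51 stands between Gstm2 at 0.27 and Gstm4 at -0.17, and on chromosome 19 the Gstp genes are far from the Gsto genes.

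Shared reads limit several of these values. For Gsta1, 90.5% of the 50-base windows of its transcripts also occurred in other genes, chiefly Gm3776. The share was 49.8% for Gsta2, mostly with Gsta1, and 33.7% for Gstp1 and 54.3% for Gstp2. For Gstm1 it was 18.9%, chiefly with the pseudogene Gstm2-ps1, which had 10 and 6 counts. How reads matching several genes were counted is not given in the sources used here, so the values of Gsta1 and Gsta2 are uncertain as to which gene they belong to. For the other alpha class genes, Gsta3 and Gsta4, the share was 0.273% and 0%. Across all 64 genes, 10 overlap an exon of a gene on the opposite strand (Gclm, Gss, Gstm5, Gstz1, Prdx2, Prdx5, Txndc11, Txndc16, Txnip and Txnrd2). Whether counting used the strand is not given either, and without it the reads of such partners cannot be told apart.

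Superoxide dismutases and catalase held the highest ratio of all 59 genes, that of Sod2. Sod2, the manganese enzyme of the mitochondrial matrix on chromosome 17 (13007839 to 13018119), had 2307 counts (38.2 TPM) in the control and 5231 counts (70.1 TPM) with TNF-α. The TNF-α library was 1.89-fold higher, a log2 ratio of 0.92 (0.85 to 0.99), so the whole interval lay under 2-fold. Its place among the 20771 genes was 1939 from the highest. The transcript it shared most with was AC166110.4, which held 17.6% of its 50-base windows. Sod1, the copper and zinc enzyme of the cytosol, had 3975 and 5030 counts (390 and 399 TPM), a ratio of 0.08. Per base of exon, Sod1 was 10.2 times as abundant as Sod2 in the control and 5.69 times with TNF-α. Cat, the peroxisomal catalase, had 5300 and 6491 counts and a ratio of 0.03 (-0.02 to 0.09), and the extracellular Sod3 had 80 and 94 counts and a ratio of -0.03 (-0.47 to 0.42).

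The genes that make and recycle glutathione were all within 2-fold, beside 8.56% of all genes called higher and 6.62% lower. Gclc, the catalytic subunit of glutamate-cysteine ligase and the rate-limiting enzyme of the pathway, had 2850 counts in the control and 2504 with TNF-α, a ratio of -0.45 (-0.52 to -0.37). Its modifier subunit Gclm (2265 and 2164 counts) and Gss (1319 and 1174 counts) were at -0.33 and -0.43. Gsr, which regenerates glutathione from its oxidised form, lay on the other side of 0, with 1019 and 1508 counts and a ratio of 0.31 (0.19 to 0.42). All 3 synthesis genes thus had intervals below 0 and the recycling gene an interval above 0.

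Among the peroxiredoxins, the endoplasmic reticulum form differed from the others. Prdx4 had 310 counts in the control and 572 with TNF-α, a ratio of 0.62 (0.42 to 0.83), the second highest of the 59 genes. Prdx1, the abundant cytosolic form, had 15211 and 15710 counts (317 and 264 TPM), a ratio of -0.21 (-0.25 to -0.18). The lowest was Prdx6, which uses glutathione and also acts on phospholipids, with 1601 and 1562 counts and a ratio of -0.29. Prdx3 and Prdx5, of the mitochondrion, were at -0.22 and -0.29, and Prdx2 at 0.13. The opposite-strand partners of Prdx2 are Junb and Rnaseh2a. Srxn1, sulfiredoxin, which repairs peroxiredoxins whose active cysteine has been overoxidised, had 575 and 836 counts and a ratio of 0.28 (0.13 to 0.44).

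In the thioredoxin system, Txn1, the cytosolic thioredoxin, was highest and its inhibitor Txnip lowest. Txn1 had 602 counts in the control and 1041 with TNF-α, a ratio of 0.53 (0.38 to 0.68). Txnip, which binds reduced thioredoxin and also restrains glucose uptake, had 3812 and 3305 counts and a ratio of -0.47 (-0.53 to -0.40). The reductases Txnrd1, Txnrd2 and Txnrd3 were at 0.02, 0.02 and 0.03, and the mitochondrial thioredoxin Txn2 at -0.03, so the recharging enzymes were at nearly equal levels in the libraries. Txnrd1 was the most abundant of the system, with 6454 and 7815 counts (120 and 117 TPM).

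Proteins with a thioredoxin fold or domain (Txnl and Txndc) numbered 12, of which 10 passed the count filter. Of these 0 were called, beside 8.56% of all genes called higher and 6.62% lower. Ratios were above 0 for 7 of the 10, beside 50.6% of all genes, with a median of 0.07. Txndc12, a small protein of the endoplasmic reticulum, was highest, with 2912 and 4745 counts (81.8 and 108 TPM) and a ratio of 0.44 (0.38 to 0.51). Txndc17, a cytosolic thioredoxin-related protein, stood at 0.42 and Txndc16 was lowest at -0.14, with 4993 and 5437 counts. The splicing factors Txnl4a and Txnl4b were at -0.08 and 0.41. Txndc2 and Txndc8, known from sperm, had 6 and 0 counts and 0 counts in both libraries, and did not pass the filter. Nqo1, a quinone reductase that is a standard readout of NRF2, had 4354 counts (178 TPM) in the control and 3579 (118 TPM) with TNF-α, a ratio of -0.54 (-0.61 to -0.48).

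**Figure D4:**
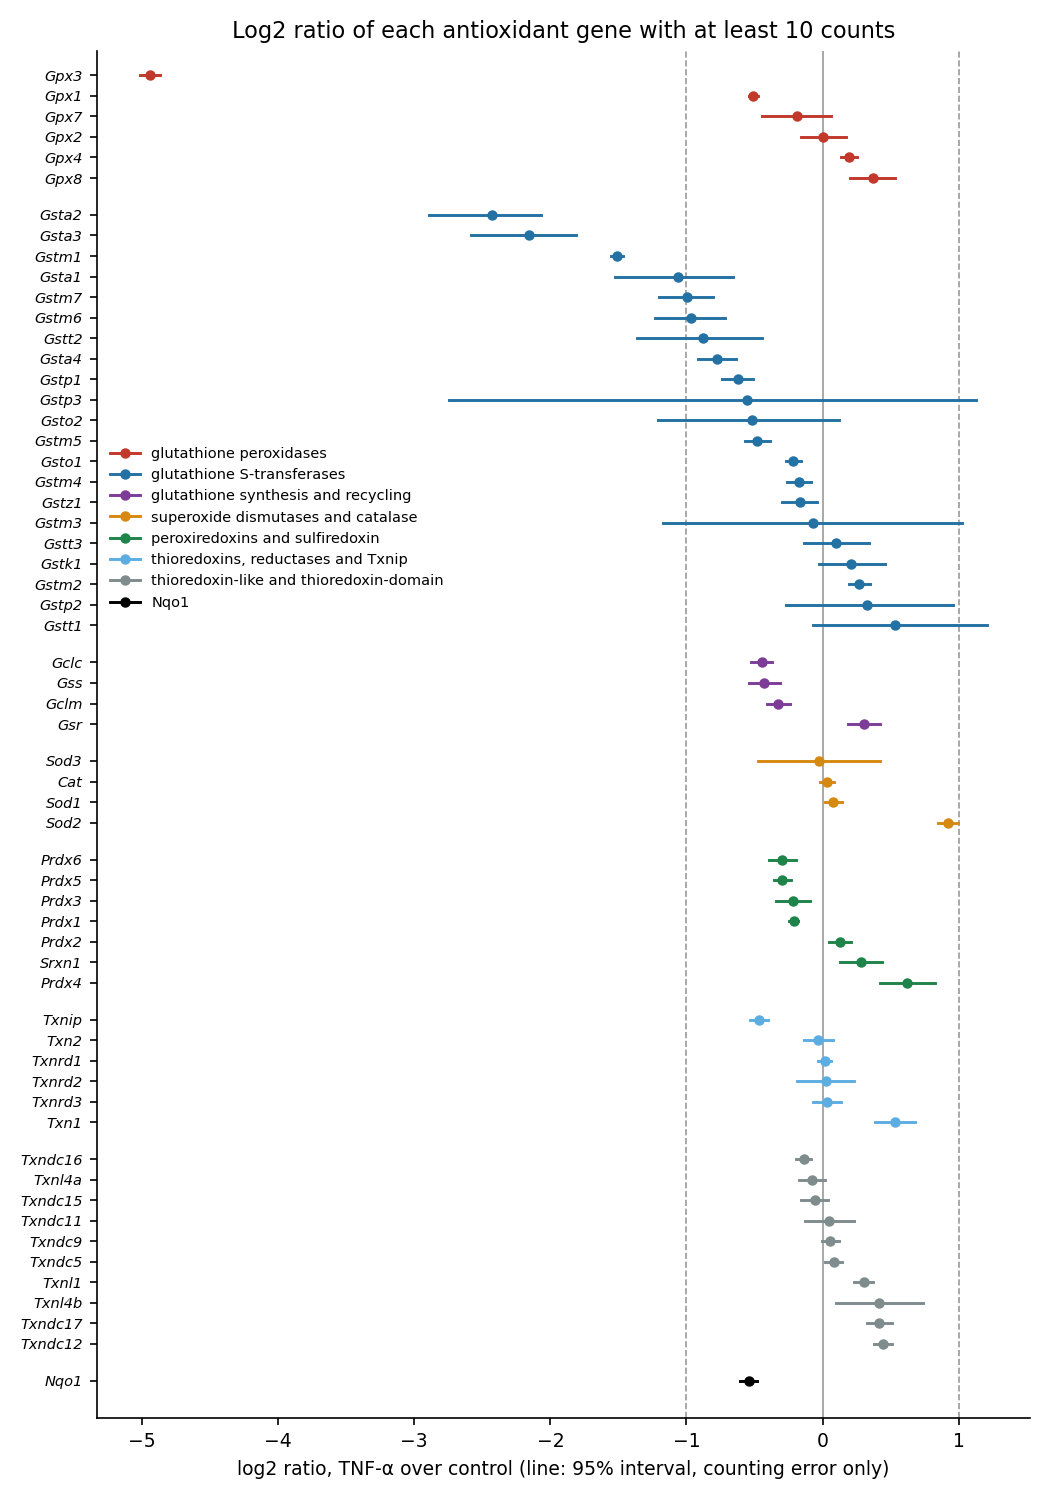
Log2 ratio of TNF-α to control (x axis) of the 59 antioxidant genes with at least 10 counts, grouped by role. Points are single ratios from 1 library per condition, lines are 95% intervals for counting error only, and dashed lines mark 2-fold. Gpx3 stands at -4.94, the S-transferases reach from -2.43 to 0.54, and Sod2 at 0.92 has the highest ratio.

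Grouped by where the proteins act or what they contain, from textbook knowledge and after the values had been seen, Gpx3 stood apart within each of its groups. The 7 selenoprotein genes (Gpx1 to Gpx4 and Txnrd1 to Txnrd3) share selenocysteine as the catalytic residue. Apart from Gpx3 they ranged from -0.51 for Gpx1 to 0.20 for Gpx4, and 5 of these 6 were above 0. Of the secreted enzymes, Gpx3 was at -4.94 and Sod3 at -0.03, the latter at only 1.36 TPM in the control. Among 5 genes of mitochondrial enzymes (Sod2, Prdx3, Prdx5, Txn2 and Txnrd2) the median was -0.03, and Sod2 was the one outside 0.5 of 0. Among 7 genes of the endoplasmic reticulum (Gpx7, Gpx8, Prdx4, Txndc5, Txndc11, Txndc12 and Txndc16) the median was 0.08 and 5 were above 0.

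Genes that regulate or surround these systems give the context, and they are described by counts and medians beside the 8.56% of all genes higher and 6.62% lower. Of 8 genes that control NRF2, 0 were called and the median was -0.0028, with Maff, a small MAF partner of NRF2, highest at 0.82 (539 and 1142 counts) and Nfe2l2, which encodes NRF2 itself, lowest at -0.15 (3990 and 4311 counts). Among 16 NRF2 targets outside the 64 genes the median was -0.35 and 13 were below 0. The ferritin heavy chain gene Fth1 was highest at 0.54, and Osgin1, an oxidative stress induced growth inhibitor, was the one called lower, with 156 and 68 counts and a ratio of -1.43. Of 23 genes of glutathione supply, use and breakdown, 2 were called lower and 0 higher, with a median of 0.04. The lower ones act in breakdown of gamma-glutamyl compounds, Ggct with 4737 and 1881 counts (ratio -1.59) and Ggt1 with 288 and 146 counts (ratio -1.23). Slc7a11, the cystine transporter that feeds glutathione synthesis, had 164 and 335 counts and a ratio of 0.76. Of 20 genes for selenocysteine machinery and other selenoproteins, 19 passed the filter with a median of 0.09. Dio3, a deiodinase, was the one called higher, from 2 and 32 counts. Among well counted ones, Lrp8, a receptor that takes up selenoprotein P, was highest at 0.86 and Selenop, which encodes that protein, lowest at -0.40. In the plot of these lists, Gpx3, Gsta2 and Gsta3 lay below the range of the other lists drawn, whose lowest gene was Ggct. The adipocyte markers were not drawn and reached -3.66, for Lep.

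**Figure D5:**
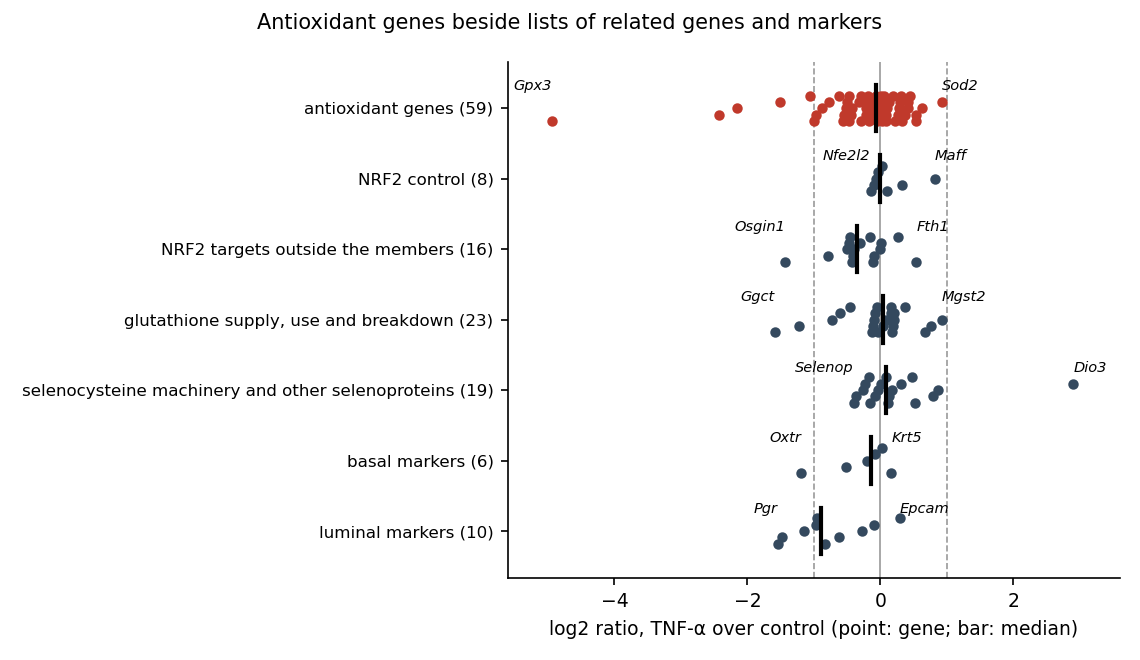
Log2 ratio of TNF-α to control (x axis) of single genes in 7 lists (rows, number of genes with at least 10 counts in brackets), with a bar at each median, dashed lines at 2-fold, and the lowest and highest gene of each list named. The antioxidant genes have a median of -0.07, the NRF2 targets outside them -0.35 and the luminal markers -0.89.

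Promoter windows in the RefSeq table matched 56 of the 64 genes, with 73 windows. The response element core occurred in 22 windows (30.1%), beside 27.8% of all 32851 windows in the table, and in 20 genes. It was present in both directions of difference, in Gsta3 (-2.15) and Gstp1 (-0.62) as well as in Srxn1 (0.28) and Txndc12 (0.44). The 18 genes with the core that passed the filter had a median ratio of -0.0066 and the 33 without it a median of -0.07. The κB motif occurred in 2 windows (2.74%, beside 4.51% of all windows), those of Sod2 and Prdx1, whose ratios were 0.92 and -0.21. A match in these windows is a description of letters and not a site shown to be used.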

How the data were processed

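The deposited file was 1 table of unnormalized read counts, made by the authors, listing exon coordinates and summed exon length for each gene. The submitters' processing notes name the builds GRCm38 and mm10, and the aligner, counting tool and read filters are not given in the sources used here. The coordinates of 46 of the 64 genes equal those of GENCODE M21, which held all 64 names. From the deposited counts, libraries were scaled by TMM with edgeR 4.0.16 (R 4.3.3), and log2 ratios took a prior count of 2. Genes whose counts summed to under 10 were left out. The quasi-likelihood test of edgeR needs replicates and was not run, so genes past 2-fold were counted and no p-value was computed. A count of 10 is worth 0.224 CPM in the control and 0.187 CPM with TNF-α. In the control 618 genes had 1 count and 2172 had 2, so counts may hold both ends of a read pair, and intervals would then be wider. Named genes are Gpx3 and Sod2, those past 2-fold with at least 200 counts, and in each role group or list the highest and lowest with at least 200 counts and, for role groups, the most abundant. Others are named with a count or were chosen after their values were seen. The genes and lists were chosen with earlier results of these data known. Intervals were computed with scipy 1.17.1 and plots drawn with matplotlib 3.10.9 in Python 3.11.15. The ratios and intervals were tested on simulated counts drawn with counting error alone. That test checked the computation and cannot show how wide the intervals should be for these cultures. Alternatives were total counts, DESeq2 1.42.0 size factors, upper quartile scaling, other filters, prior counts and folds, an interval past 2-fold, halved counts and thinning of the deeper library. Protein sequences were not analysed here.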

Additional observations from a re-analysis of the deposited data

Results flagged for a closer look

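A row left out as a pseudogene, Gpx2-ps1 (chromosome 7, 100264675 to 100265245), had 0 control counts and 8 TNF-α counts, a signal outside the genes compared and above the control level. Gpx2 itself had 561 control counts and 675 TNF-α counts and a log2 ratio of 0.01. The other pseudogene rows that the names would have taken were Gstm2-ps1, with 10 counts in the control and 6 with TNF-α, and Txn-ps1, with 0 in both.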

How the results depend on the processing

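No paired analysis was possible because there was a single library for each condition, and likewise no replicate could be left out. The number of antioxidant genes called higher, 0, was 1 with no filter beyond 1 count (Gstt4, with 0 and 3 counts) and 2 at a fold of 1.5 (Sod2 and Prdx4). The number called lower, 5, was 10 at a fold of 1.5 and 3 at a fold of 3 (Gpx3, Gsta2 and Gsta3), in both cases because the threshold itself moved. It was 6 under upper quartile scaling, total counts, DESeq2 size factors, a prior count of 0.5 and thinning, where Gstm7 was added, 6 with no filter, where Txndc2 was added, and 4 when the counting interval also had to pass 2-fold, where Gsta1 was lost. The median ratio of these genes ranged from -0.08 to -0.06 and stayed below 0. Each single gene named by rule and each role group median that was recomputed kept its sign and moved by less than its interval or spread. Over all genes, calls higher and lower were 1777 and 1375, and they were 836 and 658 of 15605 genes with at least 1 CPM in a library, 2679 and 2996 of 27108 with no filter, 3210 and 2846 at a fold of 1.5, 875 and 587 at a fold of 3, and 776 and 561 with the interval past 2-fold. Depth limits the genes with few counts, such as Gstp3 with 7 and 5 counts, whose interval ran from -2.74 to 1.13. The spread between cultures was not measured.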
